A study of Mus musculus with 7 samples.

Results

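Hippocampal expression was examined for the nuclear genes of respiratory complexes II to V, the enzymes that pass electrons to oxygen and make ATP in mitochondria. They were the rows of the authors' table whose symbol is Sdha to Sdhd, or starts with Uqcr, Cox followed by a digit from 4 to 8 and a letter from a to c, or Atp5, without pseudogenes. This gave 47 of 21965 genes, under 46 symbols: 4 of complex II, 8 of complex III, 16 of complex IV and 19 of complex V. Atp5po stood in 2 rows, one of them without a count. The pattern leaves out Cox4i1 of complex IV and Cyc1 of complex III, which are given beside the related genes below. It takes in Atp5if1, an inhibitor of ATP synthase, and Cox7a2l, a factor that joins complexes III and IV.

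RNA-seq of polyadenylated RNA was available as 7 libraries of mouse hippocampus: 3 were from mice of the blank control (Control), and the other 4 were from mice of the model of noise-induced hidden hearing loss (NIHHL). The latter mice were exposed to 110 dB of noise for 2 h, and the tissue was taken 1 month later; hidden hearing loss means that hearing is impaired while thresholds stay near normal. The labels give no strain, sex, age or animal number for either group and do not say whether tissue was pooled. If the libraries did not come from separate mice, p-values measure only the spread between libraries, which may be technical. Total counts ran from 14871367 to 24515138 per library.

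As background, complex II (succinate dehydrogenase) links the citric acid cycle to the chain and is built only from nuclear gene products. Complexes III, IV and V mix nuclear subunits with a few encoded in mitochondrial DNA: complex III hands electrons to cytochrome c, complex IV gives them to oxygen, and complex V turns the proton gradient into ATP. Neurons depend on this route for most of their ATP. Several complex IV subunits exist as a widely expressed form and a second form known from muscle or testis.

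Promoter sequences are shown for the genes on which the results turn, because nuclear respiratory genes are known for sharing the activators NRF1, GABP (an ETS factor) and YY1. The windows are RefSeq's, in GRCm38.p6, from 250 bases before to 50 bases after the annotated start, written 5′ to 3′ on the gene's strand. Capitals mark the NRF1 motif, GCGCA and GCGC with any 1 base between them, and the ETS motif, CCGGAAG, each on either strand. AAGATGGC (YY1) was also searched and did not occur in these 5 windows. Sdhb, the iron-sulfur subunit of complex II (chr4:140961203-140979193, plus strand, 8 exons), and Cox7a2, a small complex IV subunit (chr9:79755361-79759878, minus strand, 4 exons), are the marker genes of the set; these gene positions are GENCODE's in GRCm38. Sdha was added for its NRF1 matches, and Cox8a and Cox8b as the widely expressed and the muscle form of 1 subunit; these 3 were chosen after their values were seen.
Sdha (chr13:74350191-74350490, minus strand): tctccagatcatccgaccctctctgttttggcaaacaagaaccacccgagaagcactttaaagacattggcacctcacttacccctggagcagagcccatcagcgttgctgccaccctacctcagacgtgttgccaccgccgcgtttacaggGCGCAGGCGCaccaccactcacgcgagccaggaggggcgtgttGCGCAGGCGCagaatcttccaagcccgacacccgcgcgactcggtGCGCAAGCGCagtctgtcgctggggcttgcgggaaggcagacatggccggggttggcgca
Sdhb (chr4:140961021-140961320, plus strand): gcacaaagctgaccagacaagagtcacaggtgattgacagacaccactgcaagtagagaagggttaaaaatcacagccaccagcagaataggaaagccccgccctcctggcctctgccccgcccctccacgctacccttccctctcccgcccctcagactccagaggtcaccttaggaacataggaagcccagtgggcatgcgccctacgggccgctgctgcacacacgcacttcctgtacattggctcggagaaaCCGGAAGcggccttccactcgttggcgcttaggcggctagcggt
Cox7a2 (chr9:79759804-79760103, minus strand): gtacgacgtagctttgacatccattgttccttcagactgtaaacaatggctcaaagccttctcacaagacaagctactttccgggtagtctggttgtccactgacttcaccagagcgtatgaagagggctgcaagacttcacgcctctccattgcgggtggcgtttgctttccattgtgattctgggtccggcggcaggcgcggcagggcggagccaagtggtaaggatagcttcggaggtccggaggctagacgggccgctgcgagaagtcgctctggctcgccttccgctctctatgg
Cox8a (chr19:7217567-7217866, minus strand): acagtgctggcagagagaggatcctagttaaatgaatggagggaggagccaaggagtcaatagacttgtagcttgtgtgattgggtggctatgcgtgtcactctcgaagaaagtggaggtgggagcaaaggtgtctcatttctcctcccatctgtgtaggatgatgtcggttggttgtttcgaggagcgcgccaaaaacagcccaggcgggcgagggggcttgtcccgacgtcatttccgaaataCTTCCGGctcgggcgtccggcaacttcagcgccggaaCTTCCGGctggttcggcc
Cox8b (chr7:140900397-140900696, minus strand): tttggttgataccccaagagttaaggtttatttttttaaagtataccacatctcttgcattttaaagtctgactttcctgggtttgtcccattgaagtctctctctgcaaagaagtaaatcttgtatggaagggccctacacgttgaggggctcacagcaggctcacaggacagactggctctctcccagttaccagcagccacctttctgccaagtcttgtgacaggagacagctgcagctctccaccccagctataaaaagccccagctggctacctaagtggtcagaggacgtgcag

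Sdha held 3 NRF1 matches, Cox8a held 2 ETS matches and Sdhb held 1. The windows of Cox7a2 and Cox8b held none of the 3 motifs, which says only that these letters are missing there. A window was found for 36 of the 46 symbols, 39 windows in all. The NRF1 motif was in 11 of the 39 windows (28.2%) and in 4.60% of all 32851 promoter windows of that length. The ETS motif was in 12 (30.8%, against 8.86%) and the YY1 motif in 3 (7.69%, against 2.75%). At least 1 of them was in 21 of the 39 (53.8%, against 14.7%). These are matches of letters and not binding sites. The windows were not matched for base composition, and the NRF1 and ETS motifs consist mostly of G and C.

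Before the comparison of the groups, single libraries stood apart in these genes. Of the 44 genes with enough counts to test, 41 had their highest log2 CPM in Control replicate 2 and 37 their lowest in NIHHL replicate 4 (CPM stands for counts scaled by library size). All 44 were above their mean over the libraries in Control replicate 2, against 1 in NIHHL replicate 4 and 3 in Control replicate 1. The median deviation from the mean, on the log2 scale, was -0.19, 0.39 and 0.06 in Control replicates 1 to 3, against 0.13, -0.05, 0.06 and -0.36 in NIHHL replicates 1 to 4. The 2 ends of the range thus lay in different groups, and Control replicate 1 was the second lowest. Together the genes took 0.702%, 0.931% and 0.816% of the counts in Control replicates 1 to 3, against 0.825%, 0.768%, 0.815% and 0.654% in NIHHL replicates 1 to 4. The groups overlapped in this share.

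**Figure D1:**
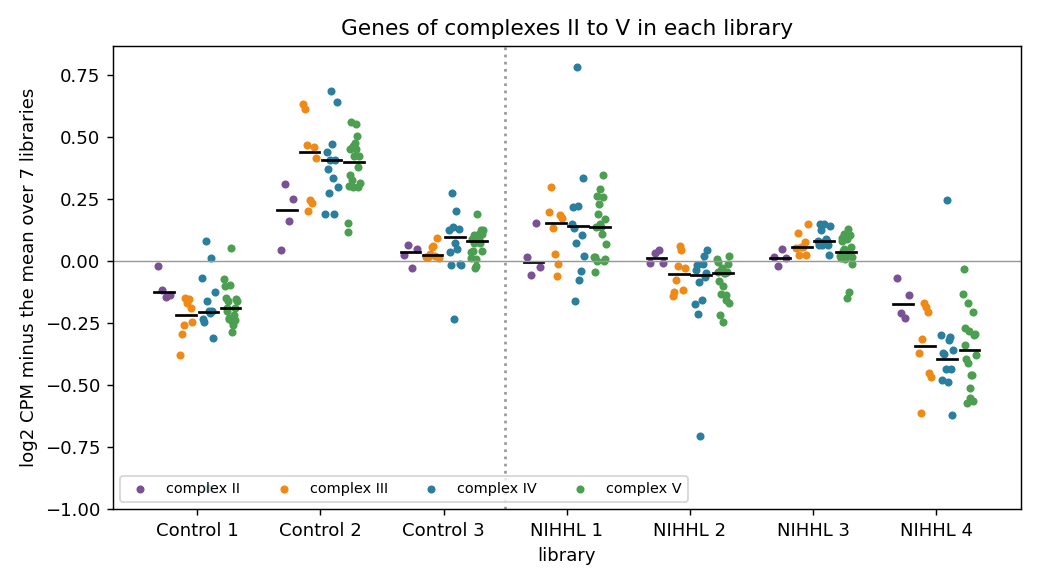
Each point is 1 gene in 1 library, as log2 CPM minus its mean over the 7 libraries, coloured by complex, with black bars at the median of each complex. Control 2 sits above 0 and NIHHL 4 mostly below it in all 4 complexes. Of the 44 genes 42 are drawn; Cox8b and Cox7a1, which vary by more than 1 unit in a library, are left out.

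The genes moved together from library to library. Over the 946 pairs of tested genes the median Pearson correlation of log2 CPM over the 7 libraries was 0.90, and 944 pairs were above 0; the points share their libraries and scaling, so this is a description. The highest median correlations with the other genes belonged to Atp5mg (0.95) and Atp5mf (0.95), small membrane subunits of ATP synthase. The lowest were those of the muscle or testis forms Cox6b2 (0.50), Cox7a1 (0.57) and Cox6a2 (0.65), which were counted at much lower levels. Across the libraries the log2 range was 0.73 in the median gene, from 0.11 in Sdha, the flavoprotein of complex II, to 3.26 in Cox8b.

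In NIHHL against Control, 41 of the 44 tested genes had a log2 fold change below 0 and 3 above it, with a median of -0.15. Over all 14417 genes tested the share below 0 was 50.1% and the median was -4.54e-04. With edgeR none of the 44 had an adjusted p under 0.05 (quasi-likelihood test), and over all genes the count was also 0 (0%). DESeq2 called 4 genes over the whole table and 0 of these 44. At an unadjusted p under 0.05, edgeR found 0 of the 44, against 3.63% of all genes (523 genes, with 1.31% lower and 2.32% higher in NIHHL). DESeq2 and limma-voom each found 1 of the 44 at that threshold, lower in NIHHL, beside 424 and 534 of all 14417 genes. The groups overlapped in each of the 44, while in 5.20% of all genes they did not (2.37% lower and 2.84% higher). The lowest adjusted p among the 44 was 0.996. In bulk tissue fewer cells of a type and less RNA per cell cannot be told apart.

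The count of 41 depended on the libraries at the ends of the range. Without Control replicate 2, 16 of 44 were below 0 and the median was 0.013. Without NIHHL replicate 4 there were 38 with a median of -0.07, without Control replicate 1 there were 43 with a median of -0.28, and with the highest and the lowest library, Control replicate 2 and NIHHL replicate 4, both left out there were 5, with a median of 0.09. Without Control replicate 1, 10 of the 44 were lower at an unadjusted p under 0.05 by edgeR (808 of all 14660 genes then tested, in either direction), and 0 passed after adjustment. With Control replicate 2 and NIHHL replicate 4 both left out, 3 of the 44 were higher at that threshold and 0 lower. The count over all 14508 genes then tested was 1041 in either direction, and 0 of the 44 passed after adjustment (edgeR).

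**Figure D2:**
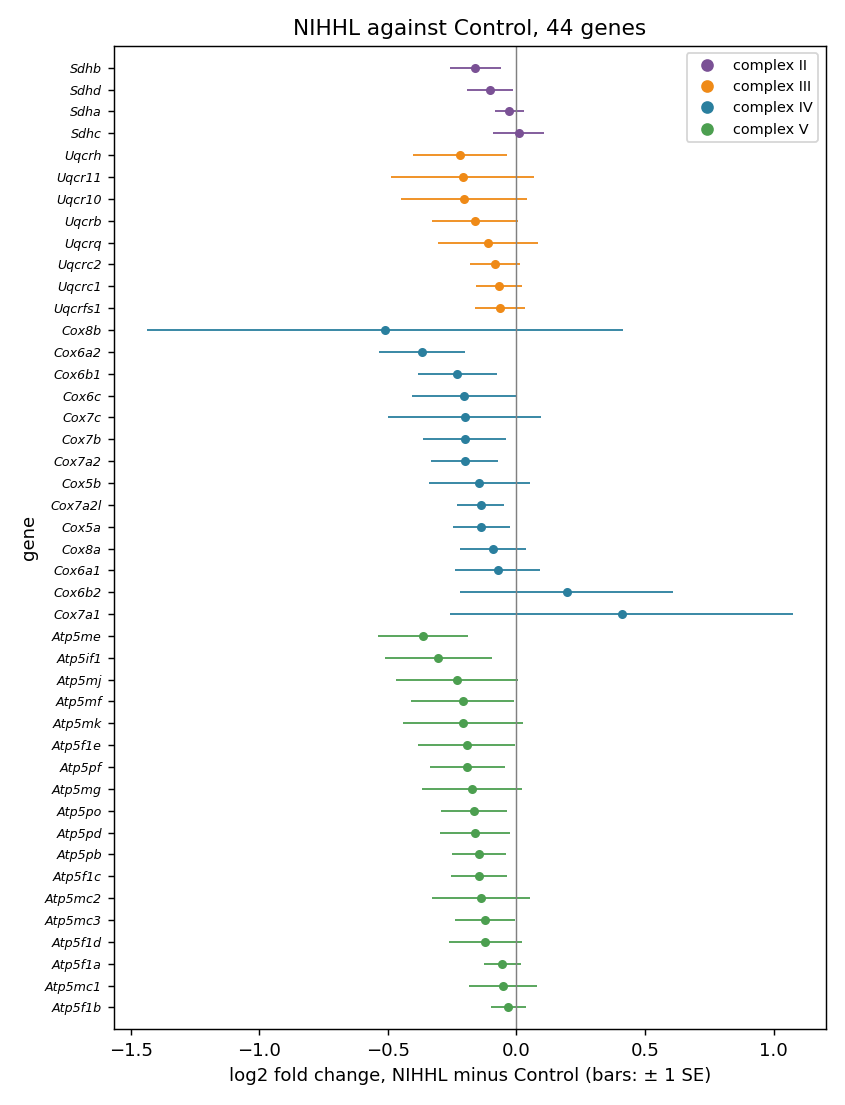
Points are log2 fold changes, NIHHL minus Control, for the 44 tested genes by complex, with bars of ± 1 standard error from edgeR's fit. Of these, 41 lie below 0, and the widest bars are those of the low-count genes Cox8b, Cox7a1 and Cox6b2.

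Complex II had the median closest to 0 of the 4 complexes, at -0.06, with 3 of 4 genes below 0. Leaving out Control replicate 2 gave a median of -0.0022, and leaving out NIHHL replicate 4 gave -0.038. Sdhb was at 102, 137 and 116 CPM in Control replicates 1 to 3, against 106, 113, 109 and 95.7 CPM in NIHHL replicates 1 to 4. Only NIHHL replicate 4 lay below the Control range and the other NIHHL libraries lay within it. Without Control replicate 2 the log2 fold change of Sdhb was -0.037, against -0.16 with it. The means were 119 ± 17.7 (SD, n = 3) and 106 ± 7.50 CPM (SD, n = 4). The log2 fold change of Sdhb was -0.16 (SE 0.10, 95% interval -0.38 to 0.06), with an adjusted p of 0.996 by edgeR; a two-sided exact permutation of its log2 CPM among the 35 possible splits gave p = 0.314, where 0.0286 is the smallest possible. Sdha, the succinate-oxidising subunit, varied least: it was at 414, 433 and 427 CPM in Control against 425, 417, 424 and 401 CPM in NIHHL. Its log2 fold change was -0.03 (SE 0.06). The membrane anchors Sdhc and Sdhd stood at 82.6 ± 8.98 and 90.2 ± 12.1 CPM in Control against 83.1 ± 9.02 and 84.1 ± 3.81 CPM in NIHHL. Their log2 fold changes were 0.0084 (SE 0.10) and -0.10 (SE 0.09).

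In complex III all 8 genes were below 0, and their median was -0.14 on the log2 scale. Leaving out Control replicate 2 gave a median of 0.054, and leaving out NIHHL replicate 4 gave -0.047. The 3 core and Rieske genes Uqcrc1, Uqcrc2 and Uqcrfs1, which carry or support the redox centres, ranged from -0.08 to -0.06. The 5 small subunits ranged from -0.22 to -0.11. Uqcrc2 had the highest count of the complex, at 243, 324 and 285 CPM in Control against 262, 285, 284 and 241 CPM in NIHHL (log2 fold change -0.08, SE 0.10). Uqcrh, the hinge protein that contacts cytochrome c1, was at 131, 205 and 159 CPM in Control against 169, 137, 151 and 109 CPM in NIHHL (-0.22, SE 0.18). Control replicate 2 and NIHHL replicate 4 were its extremes. Uqcrb, a subunit near the ubiquinone site, had means of 88.3 ± 22.7 and 79.1 ± 10.1 CPM (-0.16, SE 0.17).

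Complex IV had a median of -0.17, with 12 of its 14 tested genes below 0. Leaving out Control replicate 2 gave a median of 0.023, and leaving out NIHHL replicate 4 gave -0.061. Cox7a2 was at 93.0, 135 and 123 CPM in Control replicates 1 to 3, against 102, 107, 114 and 86.3 CPM in NIHHL replicates 1 to 4. As for Sdhb, NIHHL replicate 4 alone was below the lowest Control library, and without Control replicate 2 the log2 fold change was -0.081. The means were 117 ± 21.9 (SD, n = 3) and 102 ± 11.8 CPM (SD, n = 4), and the log2 fold change was -0.20 (SE 0.13, 95% interval -0.49 to 0.09). Its adjusted p was 0.996 by edgeR, and the exact permutation p was 0.314. The 4 subunits with a single main form, Cox5a, Cox5b, Cox6c and Cox7c, ranged from -0.20 to -0.14. The 6 widely expressed isoforms (Cox6a1, Cox6b1, Cox7a2, Cox7a2l, Cox7b and Cox8a) ranged from -0.23 in Cox6b1 to -0.07 in Cox6a1. Cox8a, with the highest count, was at 323, 433 and 349 CPM in Control against 358, 364, 388 and 275 CPM in NIHHL (-0.09, SE 0.13). Here NIHHL replicate 3 was higher than all but Control replicate 2. Cox7a2l had means of 154 ± 10.1 and 140 ± 15.8 CPM, and Cox7b of 140.1 ± 29.2 and 122 ± 19.4 CPM.

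The muscle or testis forms of complex IV were far below their widely expressed partners. Per kb of transcript, Cox6a2 stood at 6.97 CPM and Cox6a1 at 404 CPM in Control, Cox7a1 at 1.55 and Cox7a2 at 178, Cox8b at 4.02 and Cox8a at 670, and Cox6b2 at 3.62 and Cox6b1 at 257. Cox7b2 had 0 to 5 counts per library and Cox8c had none, so neither was tested; with 3 counts taken as the most that a count of 0 allows, counting error alone leaves room for a low level of Cox8c. Markers of skeletal and heart muscle were also scarce: 5 of 8 had too few counts to test, and their summed level was 5.60 to 10.9 CPM in Control against 5.13 to 9.999 CPM in NIHHL.

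Cox6a2 had the smallest p of the 44 genes. It was at 4.32, 4.95 and 4.95 CPM in Control against 3.64, 3.51, 4.46 and 3.13 CPM in NIHHL. NIHHL replicate 3 lay within the Control range and the other 3 below it. The log2 fold change was -0.37 (SE 0.17), with p = 0.0502 before adjustment and 0.996 after it by edgeR; the exact permutation p was 0.0857. Cox6a2 shares 70 exon bases with Itgad on the opposite strand. Markers of parvalbumin interneurons were below 0 in 6 of 6 cases (median -0.06). They ranged from -0.22 in Pvalb (SE 0.13) to -0.0039 in Gad1 (SE 0.07). Their summed level was 622 to 729 CPM in Control against 641 to 690 CPM in NIHHL. Most of it was Gad1 (means of 353 in Control and 352 CPM in NIHHL), which is also on the neuronal list. Pvalb itself was at 35.7 and 30.5 CPM. The part of parvalbumin interneurons in the Cox6a2 value was not tested.

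Cox8b, Cox7a1 and Cox6b2 varied more between libraries than between groups. Cox8b had 5, 74 and 19 counts in Control replicates 1 to 3, against 59, 4, 13 and 7 in NIHHL replicates 1 to 4. Its levels of 0.337, 3.10 and 0.896 CPM in Control against 2.72, 0.230, 0.716 and 0.413 CPM in NIHHL put Control replicate 2 and NIHHL replicate 1 on top. Cox6b2 was also highest in those libraries, at 3.48 and 3.73 CPM, and Cox7a1 was highest in NIHHL replicate 1, at 1.93 CPM. Markers of choroid plexus, the epithelium that makes cerebrospinal fluid, had the same libraries on top. The summed level of 12 markers was 393, 9221 and 2333 CPM in Control against 12009, 1028, 6415 and 6449 CPM in NIHHL, and Ttr, its main transcript, was detected in every library. The log2 fold changes were -0.51 (SE 0.93) for Cox8b, 0.41 (SE 0.67) for Cox7a1 and 0.20 (SE 0.41) for Cox6b2. With the choroid plexus score as a covariate, an alternative chosen after seeing the data, Cox8b was at -1.33, Cox7a1 at -0.06 and Cox6b2 at -0.21. In that fit the 44 genes had a median of -0.23, with 44 of 44 below 0, 9 at an unadjusted p under 0.05 (778 of all genes) and 0 called by edgeR. Cox8b turned to 0.72 without Control replicate 2, and Cox7a1 to -0.48 without NIHHL replicate 1.

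All 18 tested genes of ATP synthase were below 0, and their median was -0.16. Leaving out Control replicate 2 gave a median of 0.0040, and leaving out NIHHL replicate 4 gave -0.075. Atp5f1b, the catalytic beta subunit, had the highest count of all the genes, at 1036, 1203 and 1139 CPM in Control against 1122, 1077, 1121 and 1086 CPM in NIHHL. All 4 NIHHL libraries lay within the Control range. Its log2 fold change was -0.03 (SE 0.07), and that of the alpha subunit Atp5f1a was -0.05 (SE 0.07). The gamma, delta and epsilon genes of the F1 head and central stalk (Atp5f1c, Atp5f1d, Atp5f1e) stood at -0.15, -0.12 and -0.19. The 4 genes of the peripheral stalk, which holds the head still, ranged from -0.19 in Atp5pf to -0.15 in Atp5pb.

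The 3 genes of the c ring, the proton-driven rotor, encode the same mature protein. Atp5mc1 was at 131 ± 26.1 CPM in Control against 127 ± 14.9 in NIHHL, Atp5mc2 at 73.5 ± 18.9 and 66.98 ± 11.9, and Atp5mc3 at 169 ± 24.7 and 156 ± 19.6 CPM. Their log2 fold changes were -0.05 (SE 0.13), -0.14 (SE 0.19) and -0.12 (SE 0.12). The 5 other membrane subunits ranged from -0.36 to -0.17. Atp5me, a subunit of the dimer interface, was lowest: it was at 29.9, 38.7 and 32.9 CPM in Control against 35.3, 24.3, 26.0 and 19.6 CPM in NIHHL. NIHHL replicates 2 to 4 lay below every Control library and replicate 1 within their range. The log2 fold change of Atp5me was -0.36 (SE 0.18), with p = 0.0685 before adjustment and 0.996 after it by edgeR; the exact permutation p was 0.143. Atp5if1, which blocks ATP hydrolysis when the gradient fails, was at 103, 170 and 124 CPM in Control against 115, 113, 124 and 77.6 CPM in NIHHL (-0.30, SE 0.21). Its exons share 485 bases with Gm12999 on the opposite strand. Exons of Uqcrb, Uqcrc2, Cox5a, Cox6c, Atp5f1a, Atp5f1d, Atp5mg, Atp5mk, Atp5pb, Atp5pf and Atp5po also overlap another gene there, and without strand the reads of such partners cannot be told apart. On the same strand, Atp5po (both rows together) shares 287 exon bases with Donson and Atp5mc2 shares 75 with Mir688. Strand would not separate those.

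**Figure D3:**
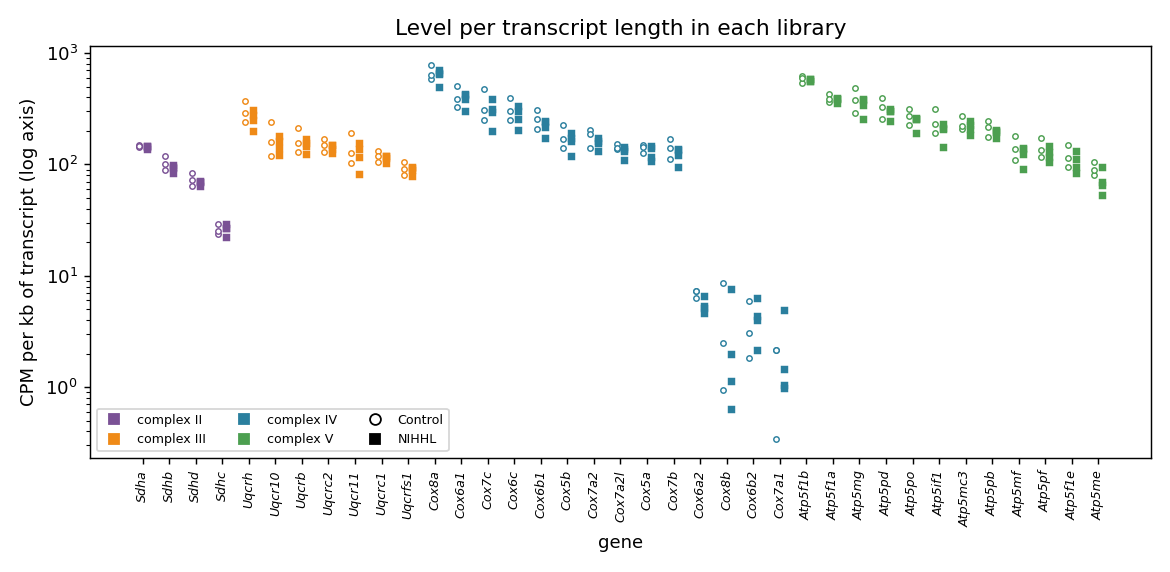
Each symbol is the level of 1 gene in 1 library, as CPM per kb of transcript on a log axis, open for Control and filled for NIHHL, for the 37 tested genes whose principal transcripts differ in length by at most 1.5-fold. Cox8a (670 in Control) and Atp5f1b (588) are at the top, and the muscle or testis forms of complex IV at the bottom.

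Per transcript length, levels differed within each complex. In complex II the Control means ran from 26.1 CPM per kb for Sdhc to 146 for Sdha. In complex III they ran from 92.7 for Uqcrfs1 to 301 for Uqcrh. In complex V they ran from 91.2 for Atp5me to 588 for Atp5f1b. Genes whose principal transcripts differ more in length, such as Atp5mc1, are left out of these ranges. So is Atp5f1c, for which no transcript was marked as principal.

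The set consists of short transcripts. Their median length was 734.5 bases, from 360 to 4715, against 3176 for all genes tested. Lengths are those of the longest principal transcript in GENCODE M21, or of the longest basic one where none is marked as principal. Over the 8342 other genes with a mean log2 CPM above 4, the deviation of a library from the mean followed transcript length in opposite directions in different libraries. The Spearman correlation was 0.51, -0.67 and -0.11 in Control replicates 1 to 3, against -0.18, 0.09, -0.37 and 0.61 in NIHHL replicates 1 to 4. It was lowest in Control replicate 2, where the respiratory genes were highest, and highest in NIHHL replicate 4, where they were lowest. Apart from NIHHL replicate 3, the order of the libraries by length trend was the reverse of their order by the respiratory genes.

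Among the 44 genes length went with both measures, as a description across genes that share libraries. Spearman's rho was 0.52 between length and log2 fold change and -0.70 between length and the range over libraries. The 27 genes under 1000 bases had a median log2 fold change of -0.19 and a median log2 range of 0.91. The 17 longer ones were at -0.10 and 0.49. Sdha and Atp5f1b, at 2900 and 1916 bases, were among the steadiest genes, and Uqcr11 and Cox7c, at 445 and 540 bases, among the most variable.

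With each library corrected for its trend with length, the median deviation was 0.09 in Control replicate 2 and -0.06 in NIHHL replicate 4. The respiratory genes with a mean log2 CPM above 4 were among the genes fitted, so the correction is not independent of them. The median log2 fold change was then -0.04, with 34 of 44 below 0 and a lowest adjusted p of 0.935 by edgeR. None of the 44 had an unadjusted p under 0.05 in that fit, against 765 of all 14417 genes (edgeR). Sdhb was at -0.08 (SE 0.05) and Cox7a2 at -0.06 (SE 0.07). In both genes the standard error was smaller than without the correction, but it takes the fitted trend as known. Cox6a2 was at -0.24 (SE 0.16), Atp5me at -0.19 (SE 0.11) and Atp5if1 at -0.14 (SE 0.06).

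**Figure D4:**
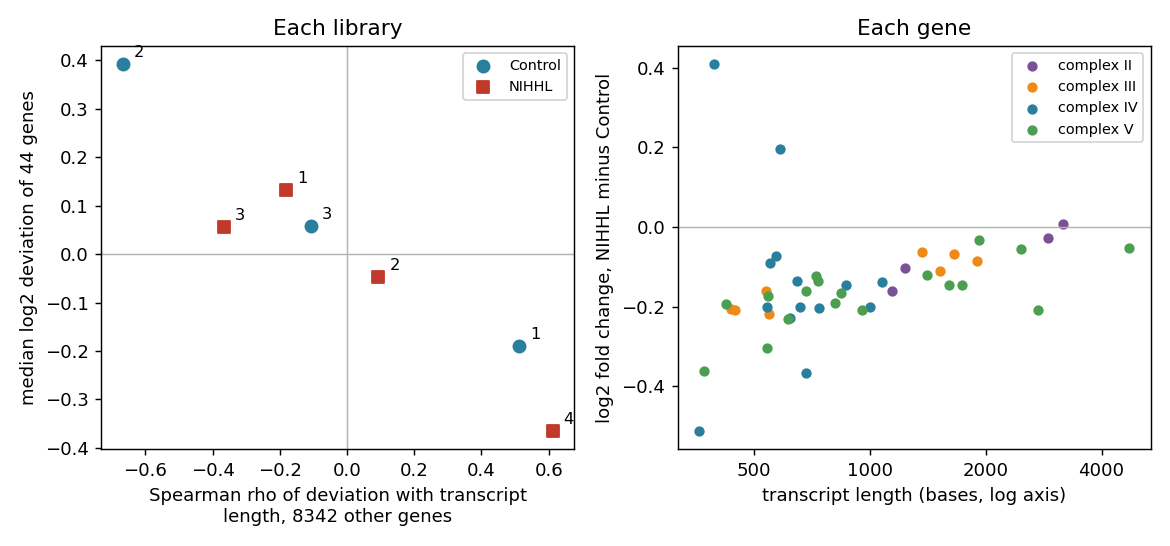
Left, the median log2 deviation of the 44 genes in each library against the Spearman correlation of deviation and transcript length over 8342 other genes, numbered by replicate. Right, the log2 fold change of each of the 44 genes against transcript length on a log axis; the left panel runs from Control 2 (-0.67, 0.39) to NIHHL 4 (0.61, -0.36).

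Cell type markers were read beside these values. Neuronal markers were below 0 in 9 of 10 cases (median -0.15), with summed levels of 6553 to 7057 CPM in Control against 6044 to 6718 in NIHHL. Oligodendrocyte markers were above 0 in 8 of 8 (0.21), at 7174 to 8997 and 8273 to 9733 CPM. Markers of ependymal motile cilia were above 0 in 15 of 15 (0.53), at 88.0 to 116 and 136 to 162 CPM, and choroid plexus markers in 12 of 12 (0.71). Of these 4 summed levels only the ependymal one did not overlap between the groups. At an unadjusted p under 0.05, edgeR found 3 of the neuronal, 5 of the oligodendrocyte, 11 of the ependymal and 0 of the choroid plexus markers, against 1.31% of all genes lower and 2.32% higher, and none passed after adjustment. The part of these cell types in the values of the respiratory genes was not tested. In a fit that held the ependymal markers as a covariate, the respiratory genes had a median of -0.72, with 44 of 44 below 0. Of these, 40 had an unadjusted p under 0.05 (2496 of all 14417 genes), but 0 were called (lowest adjusted p = 0.0848, edgeR). The ependymal level itself did not overlap between the groups, so group and covariate can hardly be separated in this fit. Its values are not read as a decrease.

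The other genes of the pathway were read beside them. The subunits outside the pattern included Cox4i1, the largest nuclear subunit of complex IV, at 382 ± 56.8 CPM in Control against 363 ± 47.8 in NIHHL (log2 fold change -0.08, SE 0.12). Cyc1, the cytochrome c1 of complex III, was at 97.7 ± 10.5 and 92.9 ± 5.47 CPM (-0.07, SE 0.08), and Ndufa4, a late-found subunit of complex IV, was at -0.16 (SE 0.18). In both Cox4i1 and Cyc1 the highest library was Control replicate 2 and the lowest NIHHL replicate 4.

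The 6 mitochondrially encoded partners were all below 0 (median -0.13). mt-Co2, which takes electrons from cytochrome c, was at 9687 ± 594 and 8686 ± 274 CPM (-0.16, SE 0.07). The groups did not overlap, but Control replicate 3 (9082 CPM) was barely above NIHHL replicate 1 (9073 CPM). The adjusted p of mt-Co2 was 0.996 by edgeR. Over all genes, 2.37% were lower in NIHHL without overlap. mt-Atp8 was at -0.57 (SE 0.09), with 466, 464 and 526 CPM in Control against 355, 334, 280 and 334 CPM in NIHHL. It was lower in every NIHHL library than in any Control library. Its p by edgeR was 3.27e-05 before adjustment and 0.472 after it, the lowest adjusted p over all genes tested. mt-Atp8 and mt-Atp6 overlap in the mitochondrial genome, so reads may have been divided between them. mt-Atp6, mt-Cytb, mt-Co1 and mt-Co3 ranged from -0.15 to -0.08. The nuclear ATP synthase genes, at a median of -0.16, overlapped between the groups throughout.

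Of 37 tested assembly factors 25 were below 0 and 12 above (median -0.05), and in 2 the groups did not overlap, both lower, against 2.37% of all genes. The smallest p belonged to Cmc2, a factor of complex IV (-0.37, SE 0.17), and Sdhaf3 of complex II (-0.22, SE 0.11). Regulators of mitochondrial biogenesis were below 0 in 6 of 13 (median 0.01), with Pprc1 at -0.14 (SE 0.09) and Lrpprc at 0.08 (SE 0.07). Their transcripts are long, with a median of 4167 bases. Genes of the citric acid cycle and of pyruvate dehydrogenase, which feeds it, were below 0 in 13 of 15 (median -0.08), with Dld at -0.16 (SE 0.08) and Pdha1 at -0.10 (SE 0.06). Carriers, pores and import genes were below 0 in 15 of 15 (median -0.07), with Vdac1 at -0.11 (SE 0.07) and Hspe1 at -0.19 (SE 0.13). None of the genes in these 4 lists or among the mitochondrially encoded partners passed over all genes in either direction (edgeR, adjusted p under 0.05). At an unadjusted p under 0.05 there were 2, both mitochondrially encoded and lower, against 3.63% of all genes (1.31% lower).

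**Figure D5:**
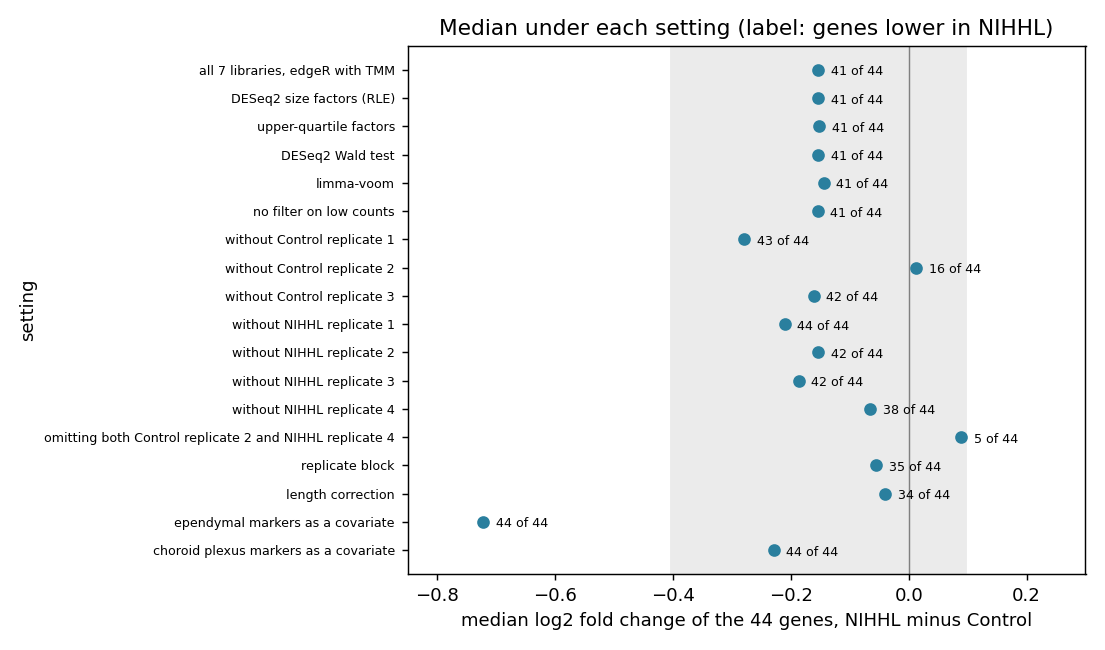
Points are the median log2 fold change of the 44 genes, NIHHL minus Control, under each setting, labelled with the number of genes below 0. The grey band is the value with all 7 libraries ± 0.25, the pooled SD of the libraries' median deviations within groups; only the fit with ependymal markers as a covariate (-0.72) lies outside it.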

How the data were processed

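Polyadenylated RNA from hippocampus was sequenced on an Illumina NovaSeq after NEBNext Ultra library preparation, per the labels' protocols. The authors deposited expected counts per gene, unscaled; 90.7% of the values were whole numbers. Bowtie2 2.2.8, HISAT2, StringTie 1.3.1 and DESeq2 are named in the submitters' processing notes without a role. The counting step, with its build, annotation and strand, was one not given in the sources used here. Counts were rounded to whole numbers. Genes with few counts were removed (edgeR filterByExpr, minimum count 10), leaving 14417 of 21965, and libraries were scaled by TMM. Log2 CPM used a prior count of 2.

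NIHHL and Control were compared by edgeR's quasi-likelihood test (robust), with group as the term and Benjamini-Hochberg adjustment over all genes tested. Log2 fold changes are NIHHL minus Control, and SE is the log2 fold change over the root of its F statistic. R 4.3.3, edgeR 4.0.16, limma 3.58.1 and DESeq2 1.42.0 were used, and the scripts were tested on simulated data. Intervals cover 95%.

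Of the 47 genes, 3 had too few counts to test. In 7, some counts carried decimals, so reads may be shared with similar or overlapping genes. Lengths and gene coordinates came from GENCODE M21 (GRCm38), matched by Ensembl identifier for 99.8% of the genes tested. For the length correction, each library's log2 deviation was fitted with a natural spline (4 degrees of freedom) on log2 length and added to the offsets. The fit took all genes with a mean log2 CPM above 4, the respiratory genes included. Promoters were matched by symbol, current or as in GENCODE M21.

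The genes, lists and tests were chosen with earlier results of these data known. Named were Sdhb and Cox7a2, per complex the gene with the highest count and the 2 with the smallest p, the genes above 0, the isoform sets, Cox4i1, Cyc1, the mitochondrially encoded partners and, per related list, the 2 genes with the smallest p. Other genes named were chosen after their values were seen. Lists are described by counts and medians, without a set test. Of the cell type lists, hippocampal neurons were below 0 in 5 of 8, astrocytes in 0 of 8, microglia in 3 of 8, endothelial cells in 5 of 6 and blood in 2 of 4. Alternatives were other scalings, DESeq2, limma-voom, no filter, leaving out libraries, a replicate block, the length correction and 2 marker covariates.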

Additional observations from a re-analysis of the deposited data

Results flagged for a closer look

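In 4 of 49 series of the 4 NIHHL libraries, 1 library lay far from the other 3: the gap to the nearest one, divided by the range, exceeded Dixon's 95% critical value. Chance gives this in about 1 of 20 series, and the series share their libraries. NIHHL replicate 4 was the low one for Atp5po (ratio 0.868), with 221, 213, 213 and 162 CPM in replicates 1 to 4. It was also low for Atp5f1a (0.908), with 965, 960 and 969 CPM against 872 CPM, and for the share of counts in complex II (0.900), with 0.0713%, 0.0706% and 0.0712% against 0.0644%. NIHHL replicate 1 was the high one for Cox7a1 (0.878), at 1.93 CPM against 0.575, 0.385 and 0.413 CPM.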

How the results depend on the processing

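Of the 44 genes, 0 were called under any alternative run. Median and count below 0 stayed within the replicate spread and within 1.5 times under the other scalings, DESeq2, limma-voom and no filter. The count below 0 ranged from 16 to 44 when single libraries were left out and was 5 omitting both Control replicate 2 and NIHHL replicate 4. Over all genes DESeq2 called 4, and edgeR called 1 omitting those libraries and 1 with the ependymal covariate. That covariate gave medians of -0.72 (all), -0.38 (complex II), -0.79 (III), -0.82 (IV) and -0.72 (V). The summed level of its markers did not overlap between the groups, so it can hardly be separated from the group term. The cause of these medians was not tested. Over the genes tested, deviations from the group mean correlated at -0.45, -0.44 and 0.06 between same-numbered libraries. The highest value of any pair was 0.48, for Control replicate 2 with NIHHL replicate 1. Such values cannot show whether same-numbered libraries were paired or shared a batch. With the replicate block the median was -0.06, with 35 of 44 below 0 and 0 genes called; 339 genes had an unadjusted p under 0.05, against 523 without it. Without Control replicate 2, Sdhb was at -0.037 and Cox7a2 at -0.081; omitting both libraries they were at 0.0086 and -0.010. The cause was not tested.

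Only some of the 44 genes were followed under every alternative, and of these the following turned sign. Omitting both libraries, under which 39 of the 44 were above 0, gave Sdha 0.0090, Sdhd 0.035, Uqcrc2 0.071, Uqcrh 0.078, Uqcrb 0.14, Cox8a 0.14, Atp5f1b 0.028, Atp5if1 0.049, Atp5mc1 0.17, Atp5mc2 0.20, Atp5mc3 0.076, Cox8b 0.96, Cox7b 0.065, Cox6b1 0.024 and Cox6a1 0.22, and medians of 0.022 (complex II), 0.12 (III), 0.13 (IV) and 0.074 (V). The length correction turned 7 of all 44, to Uqcr10 0.011, Uqcrfs1 0.0020, Uqcrb 0.014, Cox8a 0.059, Atp5f1b 0.0053, Atp5mc3 8.17e-04 and Cox6a1 0.082. The replicate block gave Cox8a 0.016, Atp5mc1 0.010 and Cox6a1 0.0502. The ependymal covariate gave Cox7a1 -2.55, Cox6b2 -0.94 and Sdhc -0.35, and the choroid plexus covariate -0.061, -0.21 and -0.039. Leaving out single libraries gave ranges of -0.19 to 0.0049 (Sdhd), -0.18 to 0.024 (Uqcrc2), -0.31 to 0.061 (Uqcrb), -0.18 to 0.045 (Cox8a), -0.088 to 0.022 (Atp5f1b), -0.48 to 0.68 (Cox7a1), -0.087 to 0.77 (Cox6b2), -0.059 to 0.0998 (Sdhc), -0.17 to 0.12 (Atp5mc1), -0.20 to 0.0045 (Atp5mc3), -1.72 to 0.72 (Cox8b), -0.20 to 0.12 (Cox6a1) and -0.28 to 0.092 (Atp5mc2). At the depth of Cox8b and Cox7a1, 2 to 74 counts per library, no difference of the sizes seen could be told from the spread.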
